A study of Mus musculus with 4 samples.

Results

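The promoters of long non-coding RNA genes were examined for open chromatin in mouse Th17 (T-helper 17) cells, a CD4 T cell subset known for its cytokine interleukin 17. A gene was taken when the GENCODE M21 annotation of the mm10 genome types it as lincRNA or antisense and every one of its transcription start sites (TSSs) lies over 2 kb from any protein-coding TSS. The rule found 7020 of the 8813 lincRNA and antisense genes, out of 55413 annotated genes, with 9493 distinct TSSs. It used the annotation and no measured value. Chromatin was profiled by ATAC-seq, where a transposase cuts and tags accessible DNA for sequencing, in 4 replicates that form 1 group: primary Th17 cells of strain C57BL/6NJ with no further treatment named, an unknown age, no recorded sex and the same donor identifier. The labels do not show that the replicates came from separate animals, so their spread may be technical. The peak names carry the mark 72hrs, and a library tag divides the replicates into 1 and 2 against 3 and 4.

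Long non-coding RNAs are transcripts that are not translated into protein. Some host small nucleolar RNAs or microRNAs in their introns or exons, some act in the nucleus on the chromosome they come from, and many have no known role. Their promoters are known to be poorer in CpG than those of protein-coding genes, and many lie near enhancers, the distal elements that bind cell-type factors. In Th17 cells, BATF and JUN proteins of the AP-1 family are known to bind many such elements.

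A promoter was called open in a replicate when that replicate's own list had a region overlapping by at least 1 bp the window of 1 kb on each side of any TSS of the gene. The lists held 83904 to 85293 regions on chromosomes 1 to 19, X and Y, and they give no read numbers, which leaves the sequencing depth unknown. The deposited signal is the height of a region over background, and it is given here as a percentile within the replicate's list, from 0 for the weakest to 100 for the strongest region. All 10 markers of T or Th17 cells had open promoters in all 4 replicates, against 1 of 5 B cell, 2 of 5 myeloid, 2 of 5 NK or CD8 T cell and 3 of 5 epithelial markers. Cd79a, Cd79b and Ms4a1, B cell markers, and Csf1r, Lyz2 and Itgam, myeloid markers, were not open in all 4.

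Sequences at the summits, the positions of highest signal, show the kinds of open long non-coding promoter described below. Each is mm10 plus strand from 50 bases before to 50 bases after the median summit of the replicates, with capitals for a searched factor string on either strand. The first set has the AP-1 string and comes from Mir155hg, the host of miR-155, from an internal TSS of Pvt1, a neighbour of Myc, from Gm13780, among the strongest open members, and from 3 members beside Il23r, Il21 and Irf4.
Mir155hg, chr16:84703230-84703330: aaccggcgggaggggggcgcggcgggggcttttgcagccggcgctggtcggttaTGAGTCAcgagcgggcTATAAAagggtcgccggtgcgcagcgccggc
Pvt1, chr15:62222864-62222964: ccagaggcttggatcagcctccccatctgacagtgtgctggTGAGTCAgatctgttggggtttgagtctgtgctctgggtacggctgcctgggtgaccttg
Gm13780, chr2:92095897-92095997: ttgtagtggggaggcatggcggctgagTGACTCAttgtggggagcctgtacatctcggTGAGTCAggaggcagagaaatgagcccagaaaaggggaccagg
Gm42889, chr6:67531361-67531461: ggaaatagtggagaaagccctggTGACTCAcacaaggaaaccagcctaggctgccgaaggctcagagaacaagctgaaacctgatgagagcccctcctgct
Gm12532, chr3:37183414-37183514: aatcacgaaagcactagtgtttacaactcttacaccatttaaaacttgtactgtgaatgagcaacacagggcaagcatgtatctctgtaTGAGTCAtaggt
Gm29675, chr13:30796264-30796364: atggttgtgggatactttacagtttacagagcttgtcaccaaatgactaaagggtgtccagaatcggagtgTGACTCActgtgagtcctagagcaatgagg
In Mir155hg the first capitals are the AP-1 string and the second a TATA box, and the summit lies in an exon of the gene. The Pvt1 summit lay in an intron of the gene, Gm13780's in its own exon and in an intron of Phf21a, Gm12532's in its own intron, and those at Gm42889 and Gm29675 outside any annotated gene. The summits at Gm42889 and Gm29675 lay 1074 and 1096 bp upstream of the TSS, so these strings are over 1 kb from it. The second set has strings common at protein-coding promoters, the ETS string at the small nucleolar RNA hosts Snhg6 and Snhg20 and the KLF/SP string at Neat1, an abundant nuclear RNA. Gm17382 has the string of CTCF, the factor that anchors chromatin loops.
Snhg6, chr1:9944092-9944192: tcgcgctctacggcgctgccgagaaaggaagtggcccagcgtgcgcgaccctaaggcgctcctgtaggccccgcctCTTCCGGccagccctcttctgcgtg
Snhg20, chr11:117076706-117076806: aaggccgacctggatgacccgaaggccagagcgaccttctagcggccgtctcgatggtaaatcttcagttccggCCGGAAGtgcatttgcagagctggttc
Neat1, chr19:5845549-5845649: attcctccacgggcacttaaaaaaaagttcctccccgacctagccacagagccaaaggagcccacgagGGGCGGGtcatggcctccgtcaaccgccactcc
Gm17382, chr17:26886217-26886317: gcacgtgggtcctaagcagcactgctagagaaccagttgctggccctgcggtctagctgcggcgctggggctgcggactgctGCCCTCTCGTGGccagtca
The summit of Snhg20 lay in an exon of the gene, that of Gm17382 in an exon of Gm20468, and those of Snhg6 and Neat1 in no annotated gene.

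The first comparison asked how many long non-coding promoters were open. Of the 7020 genes, 1197 (17.1%) had a region in all 4 replicates, 334 in 1 to 3 and 5489 in none. Over all 55413 annotated genes the share open in all 4 was 34.7%, and over all 21938 protein-coding genes it was 64.1%. Per replicate, 19.02%, 19.2%, 19.5% and 19.4% of the long non-coding promoters were open, a mean of 19.3% ± 0.233 (SD, n = 4). The 4 shares lay close together, and 78.2% of the members open in any replicate were open in all 4, against 94.7% for protein-coding genes. The windows took in 1451 to 1472 regions per replicate, or 1.73% ± 0.019 of each list. In 0.405% ± 0.092 of the open members the best region also reached a protein-coding TSS.

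To compare like with like, 1 start per gene, the 5′ end of the gene model, was set against 18256 protein-coding genes whose TSSs all lie over 2 kb from those of other protein-coding genes. At these single starts, 16.2% of the long non-coding and 54.4% of the protein-coding genes had a region in each of the 4 replicates. Per replicate the shares were 18.4% ± 0.176 and 56.4% ± 0.459 (SD, n = 4), a difference of -38.0 ± 0.297 percentage points that had the same sign in all 4 replicates. The exact two-sided sign-flip permutation test gave p = 0.13, the smallest that 4 replicates allow, so no such test here can pass 0.05. This holds for every difference over replicates below, and their size is read against the SD between replicates.

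CpG content separated the promoters of both classes. The ratio of observed to expected CpG within 500 bp of the start was under 0.2 at 3216 of the long non-coding genes (45.8%) and 0.8 or over at 53 (0.755%), against 25.9% and 18.05% of the protein-coding genes. With a ratio under 0.2, 10.7% ± 0.097 of long non-coding and 10.1% ± 0.353 of protein-coding starts were open, a difference of 0.64 ± 0.279 points. Between 0.2 and 0.4 the shares were 19.97% ± 0.168 and 29.9% ± 0.584. They were furthest apart between 0.4 and 0.6, at 32.7% ± 0.856 and 68.8% ± 0.841. In the CpG-rich bin from 0.6 to 0.8 the shares were 65.6% ± 0.901 and 90.4% ± 0.502, and from 0.8 on they were 80.2% ± 3.27 and 96.2% ± 0.252. Weighted to the CpG bins of the long non-coding genes, the protein-coding share was 26.2% ± 0.491, which left a difference of -7.86 ± 0.323 points (exact sign-flip p = 0.13).

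**Figure D1:**
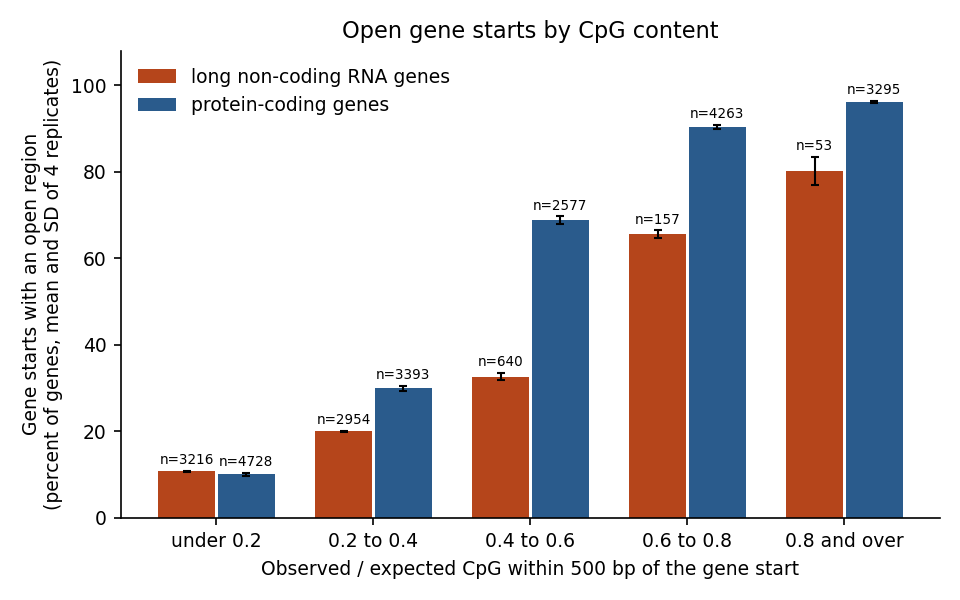
Share of gene starts with an open region (y, percent, bars are the mean and whiskers the SD of 4 replicates) by observed to expected CpG ratio (x), for long non-coding and protein-coding genes, with the number of genes above each bar. Both shares rise with CpG, from 10.7% and 10.1% in the lowest bin to 80.2% and 96.2% in the highest, and the protein-coding share is above the long non-coding one in every bin but the lowest.

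The open regions of long non-coding starts were also weaker and narrower. Their median signal percentiles were 54.9, 53.5, 55.4 and 54.4, against 75.6, 75.0, 76.2 and 75.2 at protein-coding starts. The groups of 4 values did not overlap, and the difference was -20.9 ± 0.426 percentile points (exact sign-flip p = 0.13). The median width was 799 ± 35.2 bp against 1311 ± 34.3 bp, and the median -log10 q, the caller's confidence, 39.4 ± 2.07 against 143 ± 9.13. In the strongest 10% of the lists lay 11.2% ± 0.167 of the long non-coding and 22.9% ± 0.484 of the protein-coding regions. Among CpG-rich starts, with a ratio of at least 0.6, the difference in median percentile was -14.6. At CpG-poor starts the medians lay much closer. With a ratio under 0.2, which 45.8% of the long non-coding genes have, they were 50.3 ± 2.07 and 53.1 ± 0.764. From 0.2 to 0.4, with 42.1% of these genes, they were 53.8 ± 0.554 and 57.6 ± 0.574.

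Summits kept closer to the start at protein-coding genes. The median distance of the summit was 386 ± 3.33 bp at long non-coding and 114 ± 1.41 bp at protein-coding starts, and 20.1% ± 0.692 against 46.8% ± 0.308 lay within 100 bp. A summit outside the 1 kb window, with only the edge of the region inside, was found for 17.7% ± 0.668 of the long non-coding regions and 6.66% ± 0.243 of the protein-coding ones. The profile of long non-coding summits still had its peak in the 100 bp just upstream of the start, which held 13.4% ± 0.816 of them, against 6.68% ± 0.197 in the 100 bp just downstream.

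**Figure D2:**
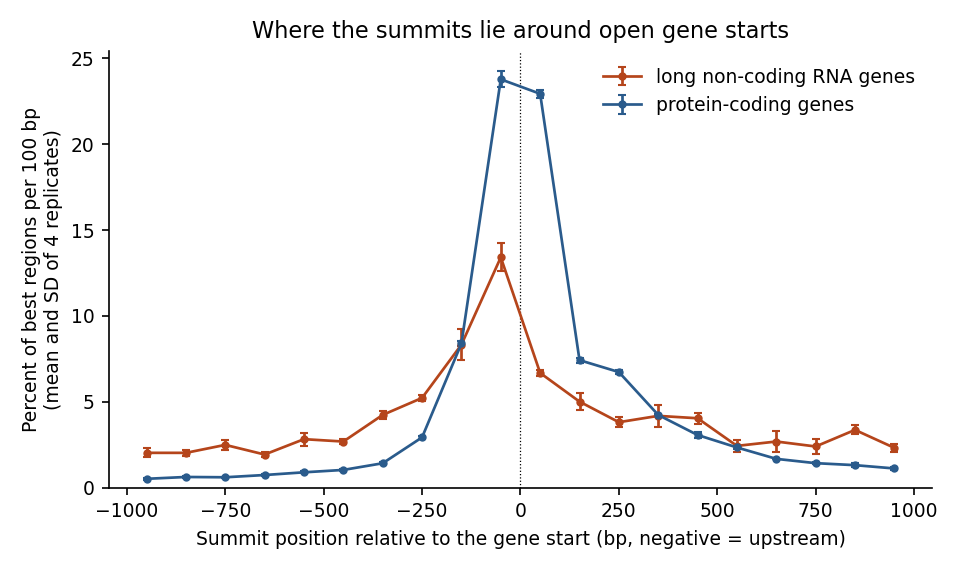
Position of the best region's summit relative to the gene start (x, bp) against the percent of best regions per 100 bp (y, points are means and whiskers SDs of 4 replicates). Long non-coding summits peak at 13.4% just upstream of the start and stay between 1.94% and 4.24% per 100 bp from 300 bp out on either side.

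The next comparison asked whether the annotated starts were open more often than their surroundings. Windows of the same size moved 10 kb to either side, and kept when over 2 kb from any TSS, were open at 8.96% ± 0.188 (SD, n = 4), against 19.3% ± 0.166 of the long non-coding TSS windows. The ratio was 2.19, 2.13, 2.12 and 2.19 in the 4 replicates, a mean of 2.16 ± 0.038. For protein-coding TSSs it was 3.70 ± 0.062. Genes near protein-coding TSSs had both more open promoters and more open surroundings. Here and in the classes below a member counts as open by any of its TSSs, while each displaced window counts alone. At 2 to 5 kb, 30.1% ± 0.791 of 550 members were open with displaced windows at 16.1%, at 10 to 50 kb 25.6% ± 0.347 of 2318 with 12.7%, and over 200 kb away 5.28% ± 0.256 of 1297 with 2.51%.

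The state of the nearest protein-coding promoter moved with that of the long non-coding one. Where it was open in all 4 replicates, 24.6% ± 0.304 of 4697 members were open, against 8.68% ± 0.142 of 2323 members beside a promoter that was not. The difference was 15.9 ± 0.252 points, the same way in 4 of 4 replicates (exact sign-flip p = 0.13, also after Benjamini-Hochberg adjustment over 11 class differences). Displaced windows beside the same genes moved too, from 3.75% ± 0.139 to 11.6% ± 0.247. Among members with a CpG ratio under 0.4 the shares were 21.1% ± 0.2596 and 6.497% ± 0.126, and among the others 47.3% ± 0.655 and 29.4% ± 1.24. Members inside a protein-coding gene were open at 26.7% ± 0.913 where the host's promoter was open and at 12.5% ± 0.297 where it was not. Antisense genes were open more often than lincRNA genes, at 23.8% ± 0.582 against 17.9% ± 0.132, and their displaced windows were at 12.6% against 8.01%.

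**Figure D3:**
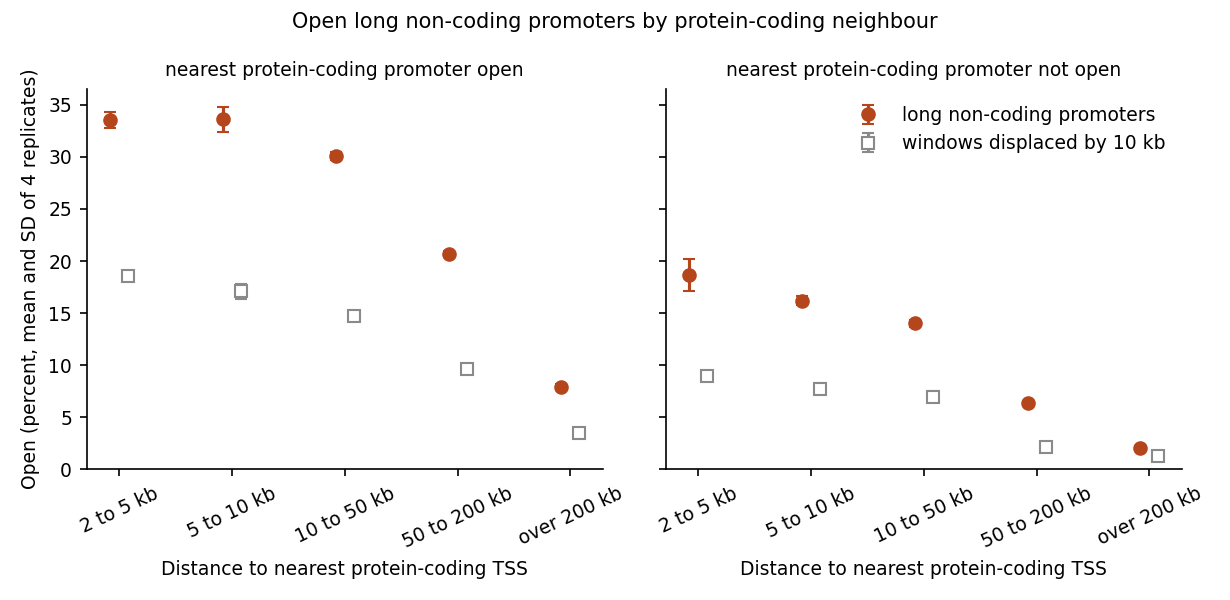
Open share (y, percent, mean and SD of 4 replicates) of long non-coding promoters and of windows displaced by 10 kb, by distance to the nearest protein-coding TSS (x), where the nearest protein-coding promoter is open (left) or not (right). Filled points lie above the displaced windows in every class, from 33.5% against 18.6% at 2 to 5 kb from an open promoter to 2.03% against 1.299% over 200 kb from one that is not.

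Strings of transcription factors at the summits differed between the classes. AP-1 (TGANTCA, N any base) was found within 50 bp of 17.6% ± 0.401 of long non-coding summits and 4.34% ± 0.123 of protein-coding ones, a difference of 13.2 ± 0.449 points. Windows 200 bp to the side of the long non-coding summits had it in 3.43% ± 0.176, and windows of the same length at all 7020 starts in 3.38%. The string of CTCF was at 6.04% ± 0.280 against 2.07% ± 0.042, and RUNX (TGTGGTT), whose factors are known in T cell development, at 5.33% ± 0.628 against 1.53% ± 0.071. The promoter strings went the other way. KLF/SP (GGGCGGG) was at 5.14% ± 0.341 against 21.9% ± 0.340, ETS (CCGGAAG) at 1.86% ± 0.246 against 6.99% ± 0.094, NFY (CCAATNAG) at 1.92% ± 0.088 against 5.09% ± 0.194, and NRF1 at 0.252% ± 0.076 against 3.20% ± 0.121. Of all 18256 protein-coding starts 17.6% hold the KLF/SP and 5.57% the ETS string in a window of this length, and of all long non-coding starts 1.72% and 1.57%. For all 10 strings the difference had 1 sign in 4 of 4 replicates, with an exact sign-flip p of 0.13, also after adjustment over the 10.

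Long non-coding starts lay between protein-coding starts and distal regions in AP-1. At the 59390 distal summits per replicate, over 2 kb from any TSS, AP-1 was at 25.2% ± 0.244, CTCF at 6.04% ± 0.272, RUNX at 5.79% ± 0.086 and KLF/SP at 1.45% ± 0.019. The TATA box (TATAAA) was at 3.10% ± 0.149 of long non-coding summits, 1.31% ± 0.031 of protein-coding and 3.65% ± 0.104 of distal ones, below the 5.08% ± 0.461 in the long non-coding flanks. The ROR string, whose factor RORA acts in Th17 cells, was rare, at 0.291% ± 0.040 against 0.044% ± 0.012 at protein-coding and 0.311% ± 0.010 at distal summits, and rested on as few as 3 long non-coding summits per replicate. YY1 was at 0.019% ± 0.039 of long non-coding and 0.714% ± 0.031 of protein-coding summits, with 0 long non-coding matches in some replicates.

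AP-1 was less frequent at CpG-rich than at CpG-poor starts in both classes. Below a CpG ratio of 0.2 the string was at 23.4% ± 0.970 of long non-coding and 20.002% ± 0.620 of protein-coding summits, and from 0.2 to 0.4 at 21.5% ± 0.471 and 12.02% ± 0.482. From 0.6 to 0.8 it was at 2.67% ± 0.473 and 2.57% ± 0.161, and from 0.8 on at 4.71% ± 0.192 and 1.74% ± 0.148, where the long non-coding share rested on a mean of 42.5 regions. With a ratio of at least 0.6 the difference between the classes was 1.07 points, and under 0.4 it was 7.64 points. With summits within 100 bp of the start, an alternative chosen after seeing the data, it was 12.6 points.

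**Figure D4:**
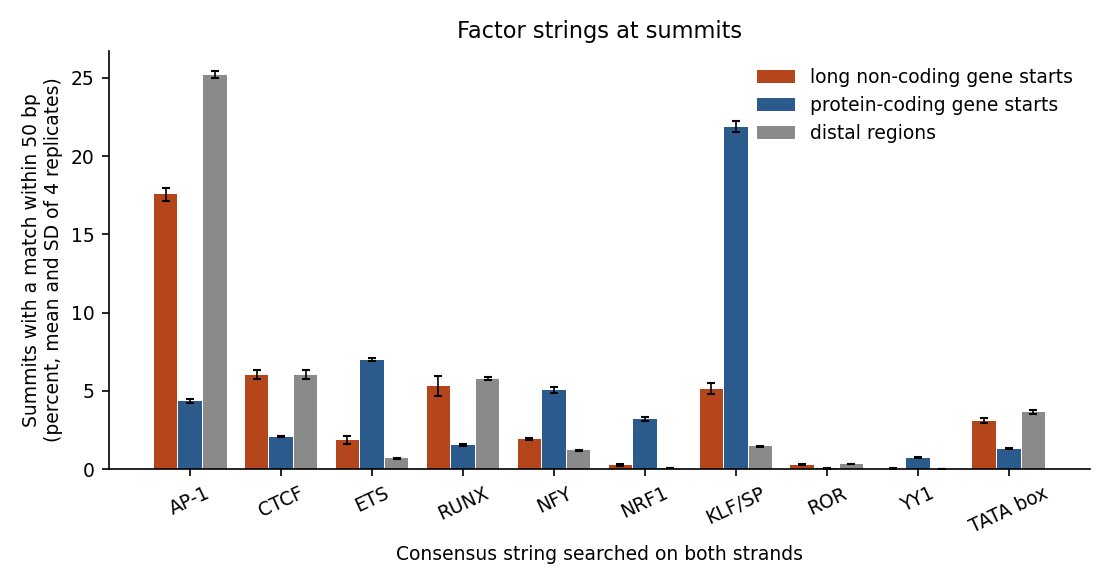
Percent of summits with a match within 50 bp (y, bars are the mean and whiskers the SD of 4 replicates) for 10 strings (x) at long non-coding starts, protein-coding starts and distal regions. The long non-coding bars stand at 17.6% for AP-1 and 5.14% for KLF/SP, between the protein-coding bars at 4.34% and 21.9% and the distal bars at 25.2% and 1.45%.

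Long non-coding RNAs with known names were described from 7 gene lists holding 104 genes. Of these, 43 met the rule, and the others had no symbol match, another gene type or a TSS within 2 kb of a protein-coding one. In all 4 replicates 30 of the 43 were open, and 8 were open in none, where 17.1% of all members were open in all 4. These shares are not alike. The lists were chosen with earlier results of these data known, and many of the listed genes have several TSSs. Of all members with 3 or more TSSs, 34.1% were open in all 4. Unless stated, a percentile below is of the strongest region at any TSS of the gene, which need not be its first. Hosts of small nucleolar RNAs, the guides of ribosomal RNA modification, were open for 4 of 4 members. Snhg6 stood at percentiles 75.1, 70.1, 73.7 and 70.6, Snhg20 at 53.0, 56.6, 61.4 and 60.5, Snhg12 at 35.7, 38.0, 36.1 and 37.0 and Epb41l4aos at 65.3, 63.6, 59.8 and 69.1. All 4 had their mean summit within 128 bp of a TSS, and the replicates of each gene stayed within 10 percentile points of each other.

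MicroRNA hosts were open for 7 of 9 members, or 6 of 8 without Mirt1, which is in the list by its symbol and is not known as such a host. Mir155hg encodes miR-155, a microRNA needed for T and B cell responses. It had regions at both of its TSSs in every replicate, at percentiles 36.4, 30.8, 38.9 and 34.6 around the first and 31.5, 31.5, 31.0 and 32.8 around the second, with a -log10 q between 74.1 and 197. Mir17hg, the host of the miR-17 to miR-92a cluster known to promote lymphocyte growth, stood at 58.0, 54.3, 53.4 and 50.3. Its region was 2891 ± 37.7 bp wide (SD, n = 4) and had its summit 2034 ± 96.4 bp upstream of the annotated start. Mir142hg, whose microRNA is known from blood cells, was open in all 4 replicates at percentiles 0.396, 0.135, 0.080 and 0.368, among the lowest signals of the lists, with a mean -log10 q of 22.9 ± 5.73. Mir670hg was high, at 95.5, 96.1, 96.0 and 96.0. That region lay at an internal TSS, with its median summit at position 94178972 and the gene start at 94264918. The brain microRNA host Mir124a-1hg was open at 33.99, 21.8, 23.5 and 15.5, and Mir124-2hg and Mirg had no region in any replicate.

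Among nuclear or widely transcribed RNAs, 8 of 9 were open in all 4 replicates. Malat1, an abundant RNA of nuclear speckles, stood at percentiles 48.1, 40.9, 44.4 and 40.7, with its summit 975 bp upstream of the nearest TSS in each replicate and a mean -log10 q of 165 ± 21.3. Neat1, the scaffold of paraspeckles, stood at 13.2, 15.03, 12.5 and 12.7 with a -log10 q of 68.8 ± 4.36. Both are known as highly transcribed. Their percentiles were below the median of 54.6 over open long non-coding starts, and their -log10 q above the median of 39.4. 2900097C17Rik was the strongest of the list after Pvt1, at 97.5, 96.4, 99.6 and 91.6. Pvt1, whose first TSS lies 50564 bp from that of Myc, stood at 98.1, 97.6, 97.8 and 98.6. That region lay at an internal TSS of Pvt1, with its summit 235492 bp from the nearest Myc TSS, and the region over the first TSS stood at 57.4, 51.7, 29.2 and 53.6. Its summits lay 559, 560, 1258 and 37 bp downstream of the first TSS, so these percentiles are of different summits. Lncpint stood at 67.8, 61.2, 67.9 and 62.6, with the AP-1 string at the summit. This region too was at an internal TSS, with its median summit at position 31088353 and the gene start at 31220488. Gm26917 had its window reached in replicate 3 alone.

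The members of the immune list, which repeats Malat1, Neat1 and the hosts of miR-155, miR-142 and miR-17, were open for 8 of 9, with a median percentile of 27.0 over the open ones against 58.7 over all members open in 4. AW112010, an interferon-induced RNA, stood at 22.96, 21.04, 17.8 and 12.98, with 2 TATA strings around the summit. That summit was near an internal TSS, with its median at position 11050419 and the gene start at 11055808. Bach2os, antisense to the T cell repressor gene Bach2, stood at 11.3, 17.4, 10.5 and 10.8. Its summits lay 1179, 1411, 1128 and 178 bp downstream of the nearest TSS, the first 3 outside the 1 kb window. Ptgs2os2 stood at 72.9, 71.8, 63.5 and 58.1. Ifngas1, the RNA beside the Th1 cytokine gene Ifng, had no region in any replicate.

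**Figure D5:**
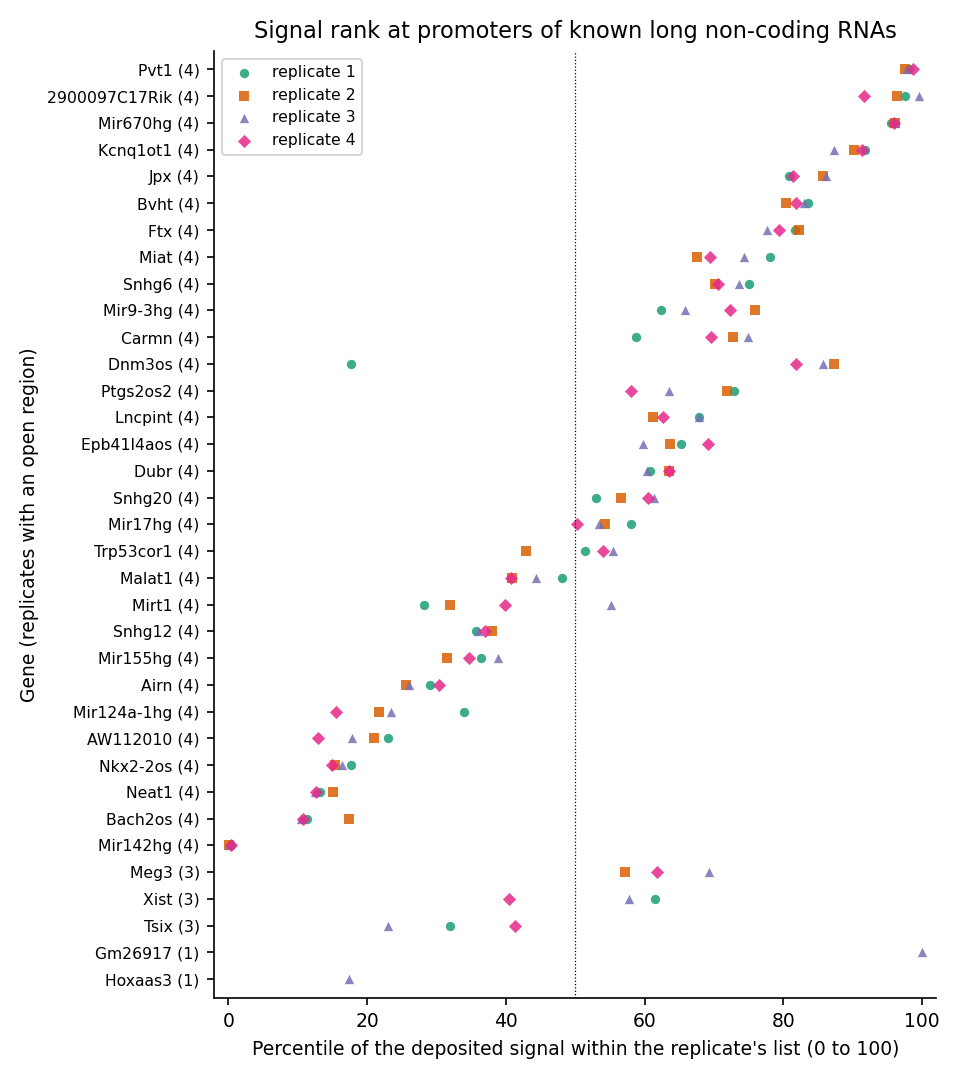
Percentile of the deposited signal (x, 0 to 100) in each of the 4 replicates (symbols) at the promoters of list members with a region in at least 1 replicate (y, with the number of replicates in brackets). Pvt1 lies at 97.6 to 98.6 and Mir142hg below 0.4, and in Dnm3os replicate 1 lies at 17.6 with the others at 81.8 to 87.2.

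Imprinted and X-linked RNAs showed members open in part of the replicates. Kcnq1ot1, the antisense RNA that silences its imprinted domain in cis, stood at 91.7, 90.1, 87.4 and 91.3, and Airn, which does so at Igf2r, at 29.0, 25.6, 26.1 and 30.3. Meg3 was open in replicates 2, 3 and 4, at 57.2, 69.3 and 61.8, and H19 and Mirg in none. Jpx and Ftx, neighbours of Xist that act in X inactivation, were open in all 4, at 80.9, 85.7, 86.2 and 81.4 and at 81.6, 82.3, 77.6 and 79.4. The Ftx region lay at an internal TSS, with its median summit at position 103617012 and the gene start at 103623790. Xist itself, the RNA that coats the inactive X chromosome, had regions in its windows in replicates 1, 3 and 4 and none in replicate 2. Each of the 3 had a summit 28 bp upstream of the TSS, at percentiles 34.4, 22.0 and 15.2, and a stronger one within an exon of Xist, 1583, 1584 and 1454 bp downstream, at 61.6, 57.8 and 40.4. Tsix, the antisense partner of Xist, had regions in the same replicates, at an internal TSS, with percentiles 31.9, 23.0 and 41.3. On chromosome Y, 4 of 183 protein-coding promoters were open in any replicate: Eif2s3y and Uty in all 4, Ddx3y in replicates 2, 3 and 4, and Kdm5d in replicate 2. The part of these Y-linked values in the Xist and Tsix results was not tested, nor was whether the replicates came from separate animals.

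RNAs of development and other tissues were open for 5 of 12, and 5 were open in none. Hotair and Halr1 of the HOX clusters and Rmst of neural precursors had no region, and Hoxaas3 had one in replicate 3 alone, at percentile 17.3. Bvht and Carmn, known from heart cells, were open in all 4, with summits 1345 ± 40 and 1054 ± 0.577 bp upstream (SD, n = 4) and mean percentiles of 82.2 ± 1.36 and 69.0 ± 7.16. Their nearest protein-coding gene is Il17b, whose promoter was open. Miat stood at 78.1, 67.6, 74.4 and 69.5. Dnm3os, antisense to Dnm3, stood at 17.6, 87.2, 85.7 and 81.8, with replicate 1 apart from the others. These values are of different summits. In replicates 2, 3 and 4 the summit lay 1701, 1701 and 1662 bp upstream, outside the 1 kb window, and in replicate 1 it lay 741 bp upstream. A separate region closer to the TSS was called in all 4 replicates, at percentiles 7.64, 4.43, 12.7 and 15.3. Nkx2-2os stood at 17.8, 15.3, 16.3 and 15.005.

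Members within 100 kb of a TSS of a Th17 gene were listed next. Of 11 such members, 5 were open in all 4 replicates and 4 in none, and 59.1% ± 5.25 were open per replicate with displaced windows at 38.8% ± 7.5. Gm48237, 10993 bp from Ahr, the aryl hydrocarbon receptor gene, stood at percentiles 68.3, 53.8, 62.0 and 49.6. Gm42889, 40634 bp from the interleukin 23 receptor gene Il23r, stood at 39.6, 38.1, 38.5 and 47.4. Gm12532, 49680 bp from the cytokine gene Il21, stood at 47.6, 33.3, 34.3 and 33.9. The other 2 had low percentiles: Gm29675, 45919 bp from Irf4, at 9.22, 6.98, 6.24 and 12.5, and Gm15511, inside Rora, at 1.13, 8.29, 3.65 and 11.04. The mean -log10 q was 23.6 at Gm29675 and 5.01 at Gm15511. It was 27.5 at Gm48237, 32.3 at Gm42889 and 15.4 at Gm12532. In Gm42889, Gm12532, Gm29675 and Gm15511 the AP-1 string was within 50 bp of the median summit, and Gm48237 had the RUNX string. At Gm42889 and Gm29675 the summit lay 1074 ± 8 and 1096 ± 18.4 bp upstream of the TSS, outside the 1 kb window. Only the edge of the region reached the window at these members. Gm15655, 2018 bp from Maf, was open in replicates 1, 3 and 4 at 59.2, 59.9 and 58.5 by the edge of a region 2753 ± 76.8 bp wide whose summit lay 2871 bp away. In these 3 replicates the region also holds a protein-coding TSS, so its percentiles are not of Gm15655 alone. Gm47958, 39780 bp from Il22, was open in replicates 2, 3 and 4 at 12.6, 21.96 and 17.6. Its summits lay 1117, 1115 and 1061 bp upstream, also outside the window. Gm28653 and Gm28065 beside Il17a and Il17f, 5330439M10Rik beside Il22 and Gm34047 beside Ahr had no region in any replicate.

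Beside other genes the counts were read against their own displaced windows. Near naive or memory T cell and T cell identity genes 11 of 21 members were open in all 4 replicates (per replicate 56.0% ± 4.56, displaced 37.5% ± 3.54), among them Gm37170 near Foxo1, at 86.0, 86.6, 84.1 and 87.6, and Gm26551 and A630014C17Rik near Tcf7. Near activation genes 9 of 22 were open (48.9% ± 4.35, displaced 39% ± 5.03), with Gm32255 near Egr2 at 73.6, 73.8, 73.5 and 69.1. Pvt1 is among the 9, and its best region is the internal one, over 100 kb from Myc. Also among the 9, 2310001H17Rik and Gm47861 near Cd69 shared 1 region, and Gm12532 was already counted near Th17 genes. Near genes of other helper lineages 3 of 11 were open (31.8% ± 9.09, displaced 15.8%), with Gm31812, 8302 bp from Stat4, at 79.1, 80.5, 78.1 and 76.0. Among the 3, C030014I23Rik and Gm47204 near Cxcr5 shared 1 region. Gm11583 near Tbx21, Gm12214 near Il5 and Gm49518 and Gm46545 near Bcl6 had no region. Near hepatocyte genes 0 of 7 were open with displaced windows at 20%, near muscle genes 2 of 17 (displaced 25% ± 1.74), near B cell genes 3 of 11 (per replicate 40.9% ± 5.25, displaced 21.1%), near neuron genes 3 of 12 (33.3% ± 6.80, displaced 4.76%), near myeloid genes 2 of 4 (50%, displaced 16.7%) and near epithelial genes 1 of 9 (30.6% ± 10.6, displaced 28.3% ± 2.51). The open members near myeloid genes include Mir142hg of the immune list above, 38004 bp from Mpo. The shares were thus above the displaced windows beside B cell, neuron and myeloid genes as well as beside T cell genes, and below them beside hepatocyte and muscle genes. With so few members per list these shares are counts and carry no test. The displaced shares rested on 6 windows for myeloid, 15 for hepatocyte, 19 for B cell, 19 for other helper and 20 for Th17 genes. There were 21 for neuron, 23 for epithelial, 40 for T cell identity, 55 for muscle and 75 for activation genes. A member is open by any of its TSSs and a displaced window counts alone, so the measures are unlike.

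The 10 strongest members had mean percentiles of 99.5 or more. Gm42418 and AY036118 shared 1 region on chromosome 17, with a mean -log10 q of 1646 ± 124 (SD, n = 4). It reached the window of Gm26917 in replicate 3. Gm42418 and AY036118 are known to overlap a copy of the ribosomal RNA repeat, and how reads of repeats were placed is not given in the sources used here. The others were Gm49709, Gm13274, BC002059, Gm6455, Gm44206, Gm30173, Gm13780 and 4930519L02Rik. Gm13780, in an intron of Phf21a, had a summit 95 bp downstream of its start in each replicate and the AP-1 string at 2 places. Gm30173 and 4930519L02Rik each had 1 AP-1 string, with summits 750 ± 18 and 734 ± 1.00 bp upstream. Of the 10, Gm6455, Gm30173, Gm13780 and 4930519L02Rik had a CpG ratio under 0.4.

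Few members divided with the library tag. A region in replicates 1 and 2 alone was found for 14 members (0.199%), against 0.159% of all annotated and 0.123% of protein-coding genes. A region in replicates 3 and 4 alone was found for 27 (0.385%), against 0.337% and 0.346%. As shares of all genes these are near the background, and the signals were mostly low, with median percentiles of 30.8 and 17.4. Only 21.8% of members were open in any replicate, against 67.7% of protein-coding genes, so shares among open genes lie further apart. Gm26735, 2310003N18Rik and 1600010M07Rik were the strongest in replicates 1 and 2, at means of 52.3, 48.9 and 42.4. In replicates 3 and 4, Gm30214 stood out at 96.4 and 95.04. It lies on chromosome 14 among the variable segments of the T cell receptor alpha chain, which are rearranged in T cells, 2962 bp from Trav8d-2. Gm46189 followed at 72.05 and 74.8, and Gm26823 at 67.8 and 52.02. Of members open in 1 replicate, Gm42678 was in replicate 4, at 88.7.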

How the data were processed

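ATAC-seq regions of 4 Th17 replicates (1 group) were used. Per the labels they refer to mm10, and per the file's peak names reads were masked, deduplicated and sorted. The aligner and peak caller: not given in the sources used here. The deposited lists give a signal, a -log10 p and a -log10 q per region, with a lowest -log10 q of 1.00. The deposited display score, set by the authors up to 1000, was not used. Lists were made per replicate, and depth is unknown. Members and lists were chosen with earlier results of these data known.

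Genes and TSSs came from GENCODE M21 on GRCm38. The first 20 bases of 9908 of 9967 member transcripts equalled the genome, so the builds match. Overlaps, CpG bins, displaced windows, percentiles and motif matches were computed in Python 3.11.15 with numpy 2.4.6 and pandas 2.3.3. Differences over replicates had exact sign-flip tests. The steps were tested on simulated data, where 200 of 200 planted long non-coding starts were recovered among 7020 genes. Named genes are list members, the 10 strongest, the strongest 5 with CpG up to 0.4, members within 100 kb of Th17 genes, the 2 strongest per other neighbour list, the strongest 3 per library tag and the 2 strongest in 1 replicate. Other genes named near T cell and helper genes were chosen after their values were seen. Alternatives changed thresholds, windows, distances, annotation, bins and replicates.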

Additional observations from a re-analysis of the deposited data

Results flagged for a closer look

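In 10 of 101 quantities 1 replicate lay far from the other 3, by the gap to its nearest neighbour as a share of the range. Chance gives about 1 in 20. Replicate 3 had 40 regions in windows of 2 or more members, against 42 in each of the others. At Dnm3os, antisense in an intron of Dnm3, replicate 1 stood at percentile 17.6 and the others at 81.8 to 87.2. Its best region there was 405 bp wide, with the summit 741 bp upstream of the TSS. In the others the summit was 1662 to 1701 bp upstream, outside the 1 kb window, so the percentiles are of different summits. At Bach2os replicate 2 stood at 17.4 against 10.5 to 11.3. There the summits lay 1179, 1411, 1128 and 178 bp downstream of the nearest TSS in replicates 1 to 4, so these percentiles too are of different summits. Among members near Th17 genes, Gm42889 stood at 47.4 in replicate 4 against 38.1 to 39.6, and Gm12532 at 47.6 in replicate 1 against 33.3 to 34.3. Gm32255 stood at 69.1 in replicate 4 against 73.5 to 73.8, and Gm17382 at 70.5 in replicate 2 against 74.9 to 75.4. Gm11747 stood at 31.6 in replicate 2 against 16.9 to 19.4, and C030014I23Rik at 47.2 in replicate 2 against 43.1 to 43.6. Gm49709 was at 99.98 in all 4, with replicate 4 above the others by a few ranks.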

How the results depend on the processing

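The share of long non-coding promoters open in all 4 replicates fell to 10.9% with only the strongest 50000 regions of each replicate. The other 15 alternatives for this share gave 13.6% to 19.9%, and leaving out 1 replicate gave 17.4% to 17.5%. Over their alternatives, the differences from protein-coding starts ran from -43.0 to -35.2 points, and with CpG weighting from -9.40 to -6.69. The ratio to displaced windows ran from 2.06 to 2.69. The difference in median percentile ran from -27.2, with regions ranked by -log10 q (chosen after seeing the data), to -11.7 with the strongest 50000 regions. The AP-1 difference ran from 1.07 points with a CpG ratio of at least 0.6 to 18.1 with 100 bp around the summit. None of these 5 changed sign under any alternative run, and none could pass 0.05 with 4 replicates. Of 59 named genes open in all 4 replicates, 6 were not with a -log10 q of at least 10 (among them Gm15511, Mir124a-1hg and Nkx2-2os), 7 with windows of 500 bp (among them Bvht, Carmn, Gm15511, Gm29675 and Gm30173) and 18 with the strongest 50000 regions (among them Malat1, Neat1, Mir155hg, Mir142hg, AW112010, Gm42889, Gm12532 and Gm29675). No paired analysis was possible because the series holds 1 group.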

Other observations

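Gene models with many starts were open more often. Members with 1 TSS were open at 17.7% ± 0.244 (SD, n = 4), with 2 at 20.2% ± 0.272 and with 3 or more at 36.8% ± 0.662, and the displaced windows of these classes were at 9.26%, 6.48% and 11.0%. A gene with more TSSs has more windows. Members with a symbol of their own were open at 25.8% ± 0.775, those named by Rik clones at 23.1% ± 0.308 and those with Gm numbers at 17.4% ± 0.171, with displaced windows at 14.3%, 8.32% and 8.19%.

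The 120 members on chromosome X were open at 10.4% ± 1.60, against 21.2% ± 0.264 of the 6351 on autosomes. Their displaced windows were at 8.25% ± 1.10 and 9.86% ± 0.212. Of the 549 members on chromosome Y, 0 were open in any replicate, and 0 of their 1465 displaced windows held a region. Without chromosome Y the share of members open in all 4 replicates was 18.5%.

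Some members beside genes of other lineages had high signal. AC122818.2, 64325 bp from Epcam, stood at percentiles 98.95, 99.1, 99.7 and 99.6, Gm28935, near the Ms4a genes, at 98.0, 97.7, 97.5 and 96.3, and Gm35665, 22146 bp from Cebpa, at 83.4, 87.1, 83.6 and 86.5.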
